A study of Solea senegalensis with 15 samples.

Results

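The Wnt genes of the Senegalese sole testis were taken from the count file by symbol: the wnt ligands, wls, the Frizzled receptors, Lrp5 and Lrp6, the R-spondins with Lgr4 and Znrf3, the secreted inhibitors, Dishevelled and Naked, Axin and Apc, the TCF/LEF factors, and Ror and Ryk. Of 28921 genes in the file 63 carried such a symbol, and 54 of them had at least 50 counts in at least 1 fish, the same minimum that left 21227 genes for testing. The other 9 were not tested, and their highest count in any fish was 49 for wnt2bb, 47 for vangl2, 37 for rspo4, 36 for wnt1, 17 for dkk2, 16 for sfrp2 and 0 for dkk3a, rspo3 and notum1a. Just inside the minimum stood fzd5 with a highest count of 50, wnt10a with 54 and wnt3 with 59. The fish were 2-year-old males, F1 offspring of wild-caught parents, injected intramuscularly once a week for 6 weeks with saline, with recombinant sole follicle-stimulating hormone (rFsh, 18 µg/kg) or with recombinant sole luteinizing hormone (rLh, 18 µg/kg). There were 8 injected fish per group, and RNA-seq counts of testis pieces from 5 of them per group were analysed here, 1 library per fish. Both hormones are single-chain proteins, and the saline group received no hormone.

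Wnt proteins are lipid-modified signals that Wls carries to the cell surface. At the receiving cell they bind a Frizzled receptor together with Lrp5 or Lrp6, Dishevelled relays the signal, and the complex of Axin and Apc that destroys β-catenin is held back, so that β-catenin can join TCF/LEF factors on DNA. Axin2, Znrf3, Notum, Nkd1 and Lef1 are textbook targets of β-catenin in vertebrates, and the first 4 of these limit the pathway in turn. In the mammalian gonad Wnt4 and Rspo1 are known for ovarian development, and Wnt signals are also known to act on spermatogonia and on the cells that support them.

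Libraries held 50.7 to 109.8 M assigned reads, the saline group having the highest median (79.9 M, against 61.2 M for rFsh and 60.9 M for rLh), and fish of a group typically differed by a coefficient of variation of 0.235. Testis markers were present in each fish: summed levels over 8 Sertoli cell genes ran from 2009 to 3441 CPM (reads scaled to a common library size with TMM factors) and over 12 spermatocyte genes from 795 to 1187 CPM. The Sertoli cell genes dhh and fshr and the spermatocyte gene sycp3 were at 0 in every fish. Such a 0, here and for dkk3a, rspo3, notum1a and slc4a1a, may mean no expression or reads not assigned to that symbol. Which of these holds was not tested, and the paper places the Fsh receptor on sole Sertoli cells. The summed spermatocyte level was 795 to 909 CPM in saline, 939 to 1187 CPM after rFsh and 918 to 946 CPM after rLh. This separation held for the sum, to which sycp1 gave 281 to 504 CPM, and not for the mean log2 deviation of the 11 tested genes from their means over all fish, which was -0.36 to -0.01 in saline, -0.12 to 0.39 after rFsh and -0.16 to 0.08 after rLh, with overlap in both cases. The summed level of 4 Leydig cell genes was 2284 CPM in saline 68 and 826 to 1505 CPM in the other saline fish, 767 to 2930 CPM after rFsh and 1462 to 2960 CPM after rLh. The red blood cell sum was 60.5 CPM in rLh 64, 27.7 CPM in rFsh 62 and 10.9 to 18.1 CPM in the other fish, and the erythrocyte membrane gene slc4a1a was at 0. To the sums of rLh 64 and rFsh 62 the gene alas2 gave 53.7 and 22.1 CPM. The part of these cell types in the Wnt values was not tested, and in pieces of whole testis fewer cells of a type and less RNA per cell cannot be told apart.

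All 54 genes had reads in every fish. Their mean saline levels lay between 0.316 CPM (wnt10a) and 240 CPM (apc), with a median of 11.2 CPM, 5 genes under 1 CPM and 28 over 10 CPM. CPM is not corrected for transcript length, so these levels do not rank the genes. Among the 5 saline fish the steadiest gene was sfrp2l, a secreted Frizzled-related protein gene, with a coefficient of variation of 6.75%, and the least steady was the R-spondin gene rspo1 with 41.1%, beside a median of 18% over the 54. From the lowest to the highest of all 15 fish the levels spanned 1.43-fold for znrf3 and 5.87-fold for wnt9b, with a median of 2.05-fold.

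**Figure D1:**
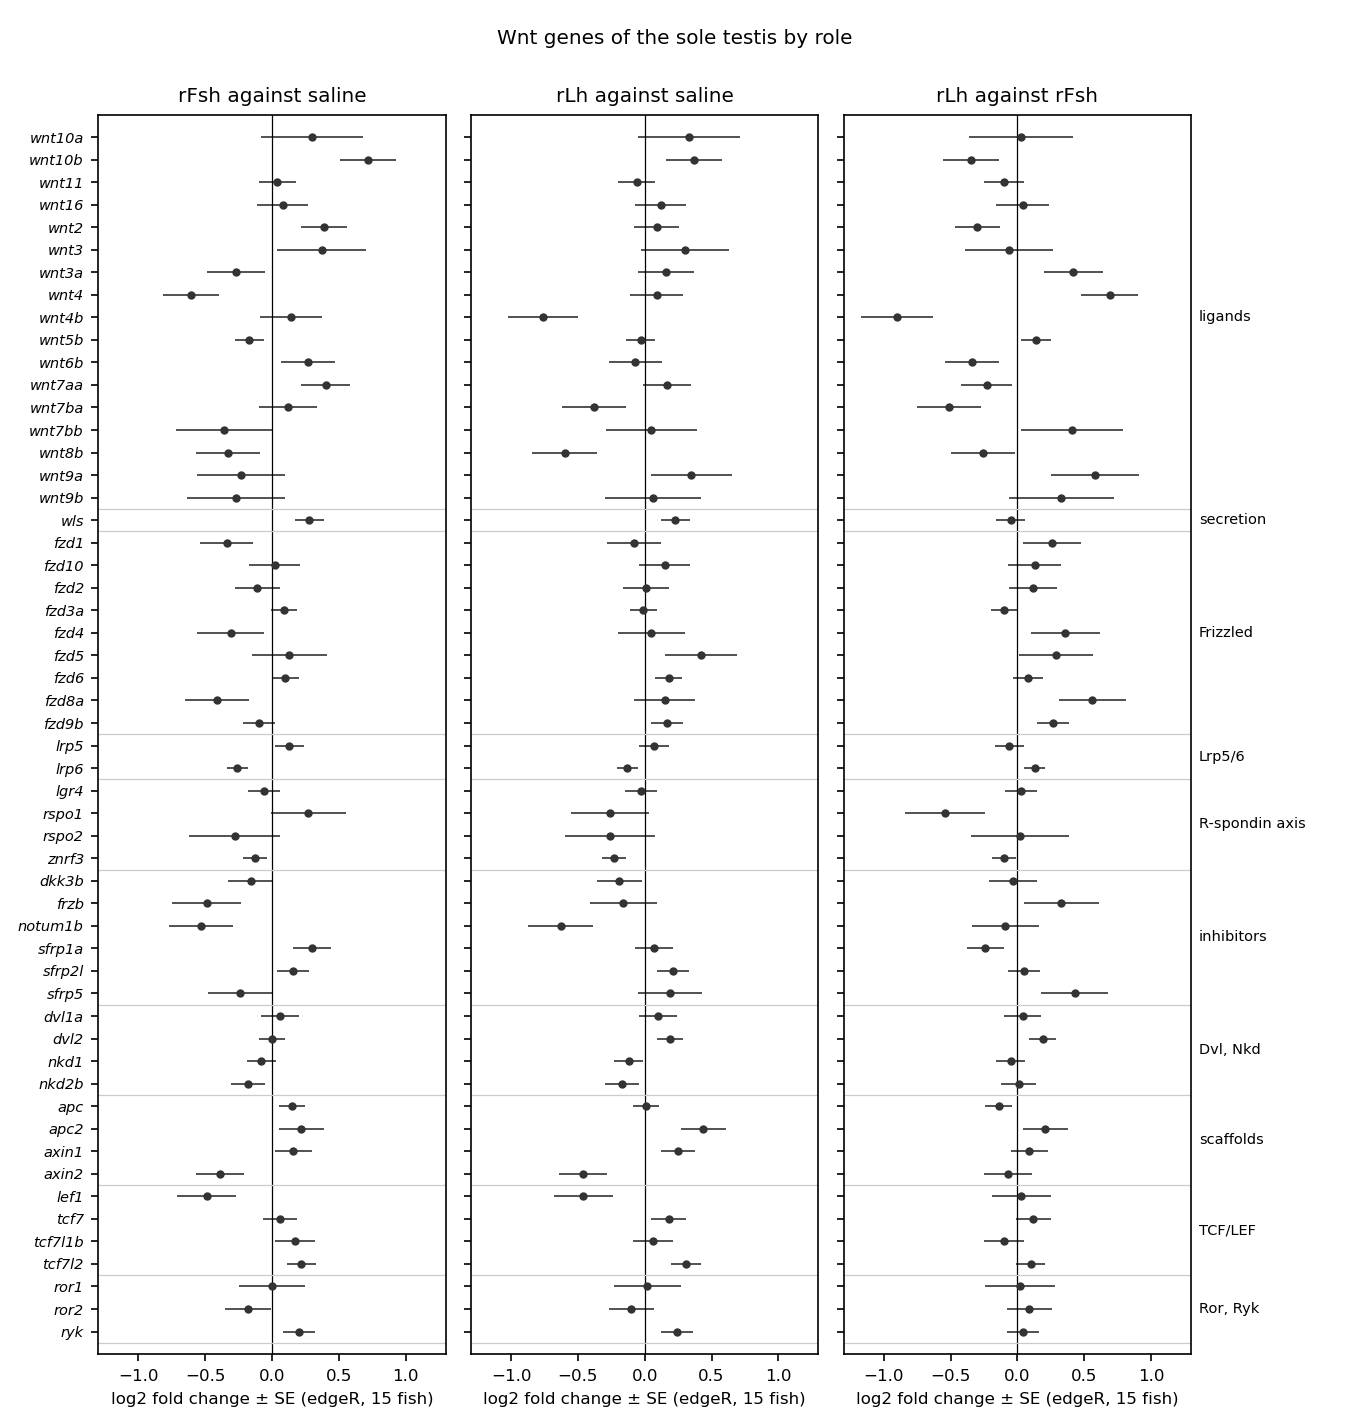
Log2 fold change of each of the 54 Wnt genes (points) with its SE (bars) in the 3 comparisons, from edgeR over the 15 fish, with genes grouped by role. Values lie on both sides of 0 in each comparison, between -0.61 and 0.72 for rFsh against saline, -0.76 and 0.44 for rLh against saline and -0.90 and 0.69 for rLh against rFsh, and none passed the test.

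The first question was whether either hormone changed these genes. With all 15 fish none of the 54 passed an adjusted p of 0.05 in edgeR's quasi-likelihood test for rFsh against saline, where 0.0471% of all tested genes passed. None passed for rLh against the saline fish or between the 2 hormones, and there 0% of all tested genes passed. At an unadjusted p under 0.05 there were 10 of 54 (18.5%) for rFsh against saline, 5 higher and 5 lower, beside 17.2% of all tested genes (9.53% higher, 7.63% lower). For rLh against saline there were 8 (14.8%), 3 higher and 5 lower, beside 13.2% (5.89% higher, 7.31% lower). For rLh against rFsh there were 4 (7.41%), 3 higher and 1 lower, beside 9.91% (4.96% higher, 4.95% lower). These shares were near those over all genes. On the log2 scale the members' median fold change was 0.01 for rFsh, 0.06 for rLh and 0.04 between the hormones, next to 0.01, 0.01 and -0.01 over all tested genes and an SD between fish of 0.07 for the members' median level. Both hormone groups were set against the same saline fish.

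The count of calls depended on the tool and on the fish. With DESeq2 the 15 fish gave 2 calls for rFsh against saline (background 2.94%), the ligand wnt10b and the co-receptor lrp6, with 10 of 54 at an unadjusted p under 0.05 (background 18.6%). It gave none for rLh against saline (background 0.222%), with 8 at an unadjusted p under 0.05 (14.5%), and none between the hormones (0.637%), with 4 unadjusted (11.5%). Over 12 fish, without rFsh 62, rLh 68 and saline 68, DESeq2 called 4 for rFsh against saline (background 5.89%), namely wnt10b, wnt7aa, tcf7l2 and lrp6, with 10 unadjusted (21.6%). Over the same 12 fish it called 7 of the 43 with an adjusted p for rLh against saline (background 12.5%), with 16 of 54 unadjusted (24.5%). Of the 7, tcf7l2 and fzd6 were higher (background 4.8%), and notum1b, axin2, wnt8b, lef1 and znrf3 were lower (7.74%). Between the hormones it called none (3.2%), with 7 unadjusted (18.8%).

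edgeR over those 12 fish called none of the 54 in the comparisons of rFsh and of rLh with saline and of rLh with rFsh (backgrounds 0.0425%, 0% and 0.0142%), with 10, 14 and 5 at an unadjusted p under 0.05 (19.8%, 22.4% and 16.2%). Without rFsh 69, edgeR called wnt4, wnt10b and lrp6 for rFsh against saline (background 4.72%) and wnt4 for rLh against rFsh (0.0945%). Without saline 68 it called lrp6 and tcf7l2 for rFsh against saline (2.99%).

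Among the 17 ligands the fitted log2 fold change for rFsh was above 0 for 10 and below 0 for 7, with a median of 0.08, and 11 and 6 for rLh, with a median of 0.09. wnt10b (linkage group 11, 10982471 to 10988051, build IFAPA_SoseM_1, as all positions here), whose mammalian counterpart is known for holding back fat cell formation, had the largest value after rFsh. Its level was 5.79, 4.64, 6.01, 8.71 and 8.20 CPM in saline 63, 64, 66, 67 and 68, and 13.5, 11.8, 11.3, 12.3 and 6.17 CPM in rFsh 61, 62, 64, 68 and 69. Thus 4 of the 5 rFsh fish stood above every saline fish and rFsh 69 lay among them. Separations with 1 fish set aside, here and for genes below, were seen in the values. The share of all tested genes that separate in this way was not counted, so they are not read as particular to these genes. After rLh wnt10b was at 7.48, 10.7, 9.67, 8.03 and 7.04 CPM in rLh 63, 64, 66, 67 and 68, overlapping both other groups. The log2 fold change for rFsh against saline was 0.72 ± 0.21 (SE; edgeR adjusted p = 0.148), with DESeq2 over the 15 fish it was 0.72 ± 0.22 (adjusted p = 0.0426), and without rFsh 69 it was 0.87 ± 0.17 in edgeR (adjusted p = 0.0161). For rLh against saline it was 0.37 ± 0.21 (edgeR adjusted p = 0.453) and for rLh against rFsh -0.35 ± 0.21 (adjusted p = 0.574).

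wnt4 (linkage group 4, 84754 to 113803), whose mammalian counterpart directs ovarian development, had the opposite sign after rFsh. It was at 7.56, 10.2, 9.93, 9.54 and 8.64 CPM in the 5 saline fish in order of number, 4.66, 6.30, 3.37, 5.63 and 10.0 CPM in rFsh 61, 62, 64, 68 and 69, and 9.14, 11.2, 8.41, 10.2 and 9.76 CPM in the 5 rLh fish. The 4 rFsh fish other than rFsh 69 lay below every saline and every rLh fish. With rFsh 69 in the fit the log2 fold change was -0.61 ± 0.21 for rFsh against saline (edgeR adjusted p = 0.182) and 0.69 ± 0.21 for rLh against rFsh (adjusted p = 0.4). Without it the values were -0.89 ± 0.16 (adjusted p = 0.011) and 0.98 ± 0.17 (adjusted p = 0.0455), so both calls rest on leaving out that fish. The summed Leydig cell level was lowest in rFsh 69, at 767 CPM against 1448 to 2930 CPM in the other rFsh fish, and its spermatocyte sum was 939 CPM against 1141 to 1187 CPM. Its Sertoli cell sum was 3441 CPM against 2009 to 2750 CPM, of which gsdf gave 2712 CPM. The smooth muscle and fibroblast sum was 1561 CPM against 2067 to 2730 CPM, and the leukocyte sum 380 CPM against 468 to 549 CPM. Whether these go with its Wnt values was not tested.

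The second copy wnt4b (linkage group 9, 21754899 to 21758840) stood at few counts, 21 to 90 per fish. It was at 0.754, 0.667, 0.789, 0.727 and 1.13 CPM in saline, 1.17, 1.10, 0.631, 0.944 and 0.646 CPM after rFsh, and 0.348, 0.344, 0.501, 0.646 and 0.567 CPM after rLh. Every rLh fish lay below every saline fish, and the rLh and rFsh ranges met at 0.646 and 0.631 CPM. The log2 fold change was -0.76 ± 0.26 for rLh against saline (edgeR adjusted p = 0.344) and -0.90 ± 0.27 for rLh against rFsh (adjusted p = 0.4). wnt4b was the 1 member lower after rLh with no overlap, beside 1.14% of all tested genes.

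**Figure D2:**
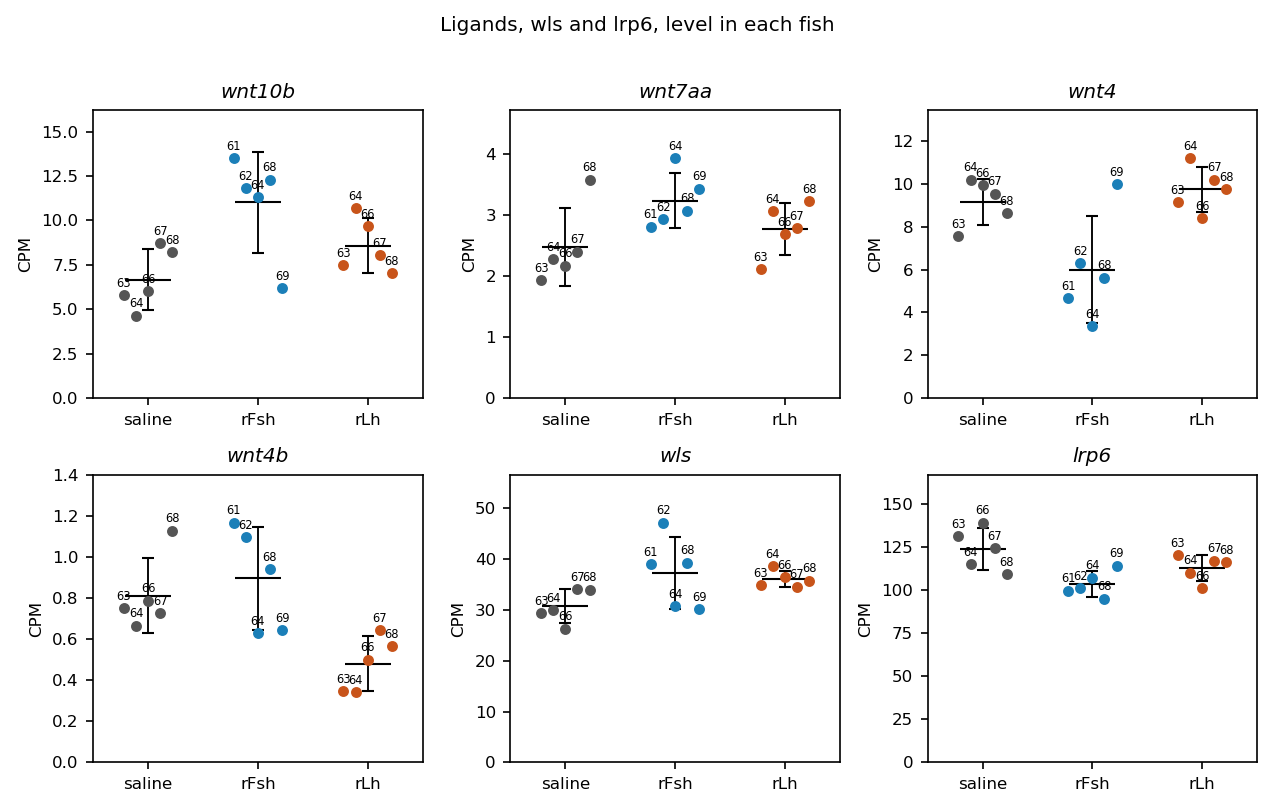
Level in CPM (vertical axis, from 0) of 5 ligand-side genes and the co-receptor gene lrp6 in each fish, by group, with the fish number above each point and the group mean as a horizontal line with its SD as error bars (n = 5). rFsh 69 lies apart from the other 4 rFsh fish for wnt10b (6.17 CPM) and wnt4 (10.0 CPM), and every rLh fish is above every saline fish for wls.

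wnt7aa (linkage group 4, 13911985 to 13927669, overlapping a tRNA gene) was at 1.93, 2.28, 2.17, 2.40 and 3.58 CPM in saline, 2.81, 2.93, 3.93, 3.07 and 3.43 CPM after rFsh and 2.11, 3.06, 2.69, 2.78 and 3.23 CPM after rLh. Every rFsh fish was above the saline fish other than saline 68. The log2 fold change for rFsh was 0.40 ± 0.18 over the 15 fish (edgeR adjusted p = 0.273) and 0.59 ± 0.17 over the 12 in DESeq2 (adjusted p = 0.0201), a set without saline 68. For rLh it was 0.17 ± 0.18 (edgeR adjusted p = 0.695), and between the hormones -0.23 ± 0.19 (adjusted p = 0.683).

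wnt2 (linkage group 10, 5761291 to 5779348), a ligand of the β-catenin branch, was at 8.22, 7.89, 7.81, 9.14 and 10.8 CPM in saline and 12, 13.8, 12, 9.86 and 9.86 CPM after rFsh, where saline 68 overlapped the 2 lowest rFsh fish. Its log2 fold change was 0.39 ± 0.17 (edgeR adjusted p = 0.262). After rLh it was 8.23, 14.4, 7.60, 8.20 and 8.18 CPM, with rLh 64 far above the other 4. wnt7ba (linkage group 3, 26205029 to 26215073) was at 1.33, 1.58, 1.80, 2.04 and 1.69 CPM in saline, 2.03, 1.68, 1.44, 1.04 and 2.78 CPM after rFsh and 1.11, 1.57, 1.12, 1.15 and 1.53 CPM after rLh. The groups overlapped, and rLh against rFsh gave -0.51 ± 0.24 (edgeR adjusted p = 0.508).

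wnt8b (linkage group 15, 5420509 to 5429557), whose counterparts are known from the developing forebrain, was at 71.8, 55.5, 71.0, 66.7 and 36.8 CPM in saline, 40.0, 26.5, 62.7, 42.5 and 68 CPM after rFsh and 56.8, 33.7, 34.6, 31.9 and 43.1 CPM after rLh. The 4 saline fish other than saline 68 lay above 4 of the 5 rLh fish, rLh 63 being the exception. The log2 fold change for rLh was -0.60 ± 0.24 over the 15 fish (edgeR adjusted p = 0.352) and -0.76 ± 0.21 over the 12 in DESeq2 (adjusted p = 0.00863). The other 10 ligands lay between -0.36 (wnt7bb) and 0.37 (wnt3) after rFsh, and between -0.07 (wnt6b) and 0.35 (wnt9a) after rLh, on the log2 scale.

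wls (linkage group 1, 8880780 to 8896782), the carrier of Wnt proteins to the surface, was at 29.4, 30, 26.3, 34.1 and 34 CPM in saline, 39.0, 47.2, 30.8, 39.3 and 30.2 CPM after rFsh and 34.9, 38.6, 36.5, 34.6 and 35.8 CPM after rLh. Every rLh fish was above every saline fish, by as little as 34.6 against 34.1 CPM, while the rFsh group overlapped saline. It was the 1 member higher after rLh with no overlap, beside 0.961% of all tested genes (2.1% in either direction). The fitted log2 change was 0.23 ± 0.11 for rLh (edgeR adjusted p = 0.394) and 0.28 ± 0.11 for rFsh (adjusted p = 0.234). For rFsh against saline, and for rLh against rFsh, no member had groups that did not overlap. Over all tested genes the share was 1.72% for the former (0.876% higher, 0.843% lower) and 1.54% for the latter (0.829% higher, 0.707% lower).

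At the receptors, lrp6 (linkage group 3, 31663780 to 31686383), the co-receptor that recruits Axin to the membrane, was at 131, 115, 139, 124 and 109 CPM in saline, 99.5, 101, 107, 94.9 and 114 CPM after rFsh and 120, 110, 101, 117 and 116 CPM after rLh. The 4 rFsh fish other than rFsh 69 lay below every saline fish. On the log2 scale the change for rFsh was -0.26 ± 0.08 in edgeR (adjusted p = 0.148), -0.27 ± 0.08 in DESeq2 over the 15 fish (adjusted p = 0.0411) and -0.30 ± 0.09 over the 12 (adjusted p = 0.028). It passed in edgeR without rFsh 69 (adjusted p = 0.0416) and without saline 68 (adjusted p = 0.0465). For rLh it was -0.13 ± 0.08 (edgeR adjusted p = 0.447), and the paralog lrp5 was at 0.13 ± 0.11 after rFsh and 0.07 ± 0.11 after rLh.

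Of the 9 Frizzled genes, 8 had a fitted log2 fold change above 0 for rLh against rFsh, with a median of 0.26 over the 9, and the exception was fzd3a at -0.10 ± 0.10. None passed the test, and 2 of the 9 had an unadjusted p under 0.05, beside 9.91% of all tested genes. Of all tested genes 10053 had a value above 0 in this comparison and 11174 below. fzd8a (linkage group 1, 40153722 to 40156546) was at 0.974, 1.55, 1.40, 1.17 and 0.877 CPM in saline, 0.730, 0.625, 0.797, 1.14 and 1.16 CPM after rFsh and 1.46, 1.41, 0.941, 1.76 and 1 CPM after rLh. Its rLh against rFsh value was 0.56 ± 0.25 (edgeR adjusted p = 0.501), with overlapping groups. fzd9b (linkage group 8, 16625756 to 16628704) was at 39.8, 26.3, 34.4, 25.6 and 31.4 CPM in saline, 32.9, 28.2, 27.2, 33.2 and 25.4 CPM after rFsh and 38.3, 33.2, 36.7, 38.4 and 30.5 CPM after rLh. The groups overlapped here as well, and the same comparison gave 0.27 ± 0.12 (adjusted p = 0.499).

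fzd6 (linkage group 9, 10020249 to 10030086), known in mammals for planar cell polarity, was at 73.0, 59.1, 62.3, 57.8 and 76.9 CPM in saline, 61.4, 86.6, 64.2, 71.9 and 69 CPM after rFsh and 70.7, 80.1, 72.3, 82.4 and 66.9 CPM after rLh. Saline 63 and 68 lay within the rLh range and the other 3 saline fish below it. The value for rLh was 0.18 ± 0.10 over the 15 fish (edgeR adjusted p = 0.457) and 0.27 ± 0.10 over the 12 in DESeq2 (adjusted p = 0.0468). Of the other receptors, ror1, ror2 and ryk lay between -0.18 and 0.20 after rFsh and between -0.10 and 0.24 after rLh.

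Of the genes that the pathway itself induces, axin2 (linkage group 19, 12164869 to 12179572), the inducible scaffold of the destruction complex, was at 92.9, 79.6, 97.7, 80.5 and 60.3 CPM in saline, 65.0, 39.6, 75.0, 57.6 and 76.0 CPM after rFsh and 69.4, 46.1, 57.8, 52.0 and 73.6 CPM after rLh. All 10 hormone-treated fish lay below the 4 saline fish other than saline 68, and saline 68, whose Leydig cell sum was 2284 CPM against 826 to 1505 CPM in the other saline fish, lay among them. Saline 68 was the highest or lowest saline fish in 53.7% of the members, next to 51.3% of all tested genes. The smooth muscle and fibroblast sum of saline 68 was 2310 CPM against 1666 to 1780 CPM in the other saline fish. Whether these sums go with its Wnt values, here and for notum1b, tcf7l2 and the other genes where saline 68 stood apart, was not tested. For axin2 the log2 change over the 15 fish was -0.46 ± 0.18 for rLh (edgeR adjusted p = 0.348) and -0.39 ± 0.18 for rFsh (adjusted p = 0.271). Over the 12 fish it was -0.64 ± 0.14 for rLh in DESeq2 (adjusted p = 6.31e-04) and -0.63 ± 0.13 in edgeR (adjusted p = 0.0526), and -0.36 ± 0.14 for rFsh in DESeq2 (adjusted p = 0.1). Between the hormones it was -0.07 ± 0.18 (edgeR adjusted p = 0.908), a value too imprecise to show that they act alike.

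notum1b (linkage group 6, 5693708 to 5702003) encodes a copy of Notum, an enzyme that removes the lipid from Wnt proteins. It was at 48.9, 40.5, 49.4, 49.5 and 24.1 CPM in saline, 31.3, 14.9, 35.3, 26.1 and 39.0 CPM after rFsh and 37.4, 21.8, 24.8, 21.9 and 32.0 CPM after rLh. As for axin2, all hormone-treated fish lay below the saline fish other than saline 68, itself at the low end of the rLh range. The fitted log2 change for rLh was -0.63 ± 0.24 over the 15 fish (edgeR adjusted p = 0.351) and -0.84 ± 0.18 over the 12 in DESeq2 (adjusted p = 5.91e-04). For rFsh it was -0.53 ± 0.24 over the 15 (edgeR adjusted p = 0.275).

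lef1 (linkage group 6, 25072347 to 25114733), the TCF/LEF factor that β-catenin itself induces, was at 73.0, 68.6, 80.1, 104 and 50.1 CPM in saline, 50.3, 39.1, 55.3, 40.8 and 81.0 CPM after rFsh and 62.2, 44.2, 49.8, 43.1 and 74.0 CPM after rLh. The saline fish other than saline 68 held at least 68.6 CPM, where rFsh 69 and rLh 68 joined them, and the other 8 hormone-treated fish lay below. On the log2 scale the change over the 15 fish was -0.49 ± 0.22 for rFsh (edgeR adjusted p = 0.264) and -0.46 ± 0.22 for rLh (adjusted p = 0.381), and over the 12 it was -0.71 ± 0.21 for rLh in DESeq2 (adjusted p = 0.0108). Between the hormones it was 0.03 ± 0.22 over the 15 and -0.20 ± 0.21 over the 12 in DESeq2.

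znrf3 (linkage group 5, 16804883 to 16868927), a ubiquitin ligase that removes Frizzled from the surface, was at 55.5, 49.4, 58.5, 54.7 and 62.4 CPM in saline, 48.1, 52.3, 58.0, 45.4 and 52.8 CPM after rFsh and 46.4, 43.7, 46.5, 44.7 and 58.1 CPM after rLh. The rLh fish other than rLh 68 lay below every saline fish. Its log2 change for rLh was -0.23 ± 0.09 over the 15 fish (edgeR adjusted p = 0.352) and -0.27 ± 0.09 over the 12 in DESeq2, without rLh 68 (adjusted p = 0.03). The other textbook target among the members, nkd1, an inhibitor of Dishevelled, was at -0.12 ± 0.11 for rLh and -0.08 ± 0.11 for rFsh (edgeR adjusted p = 0.643 and 0.765).

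tcf7l2 (linkage group 18, 12895539 to 12986320), a TCF/LEF factor, had the opposite sign. It was at 68.9, 62.4, 59.2, 68.2 and 92.9 CPM in saline, 85.7, 83.6, 75.7, 88.4 and 75.4 CPM after rFsh and 77.7, 97.8, 88.3, 95.2 and 78.3 CPM after rLh. All 10 hormone-treated fish were above the 4 saline fish other than saline 68, which lay among the highest. The fitted log2 change over the 15 fish was 0.31 ± 0.11 for rLh (edgeR adjusted p = 0.344) and 0.22 ± 0.11 for rFsh (adjusted p = 0.327). Over the 12 fish in DESeq2 it was 0.47 ± 0.10 for rLh (adjusted p = 4.86e-04) and 0.33 ± 0.10 for rFsh (adjusted p = 0.0265), and edgeR without saline 68 called it for rFsh (0.34 ± 0.09, adjusted p = 0.0497). Between the hormones it was 0.10 ± 0.11 (edgeR adjusted p = 0.779).

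**Figure D3:**
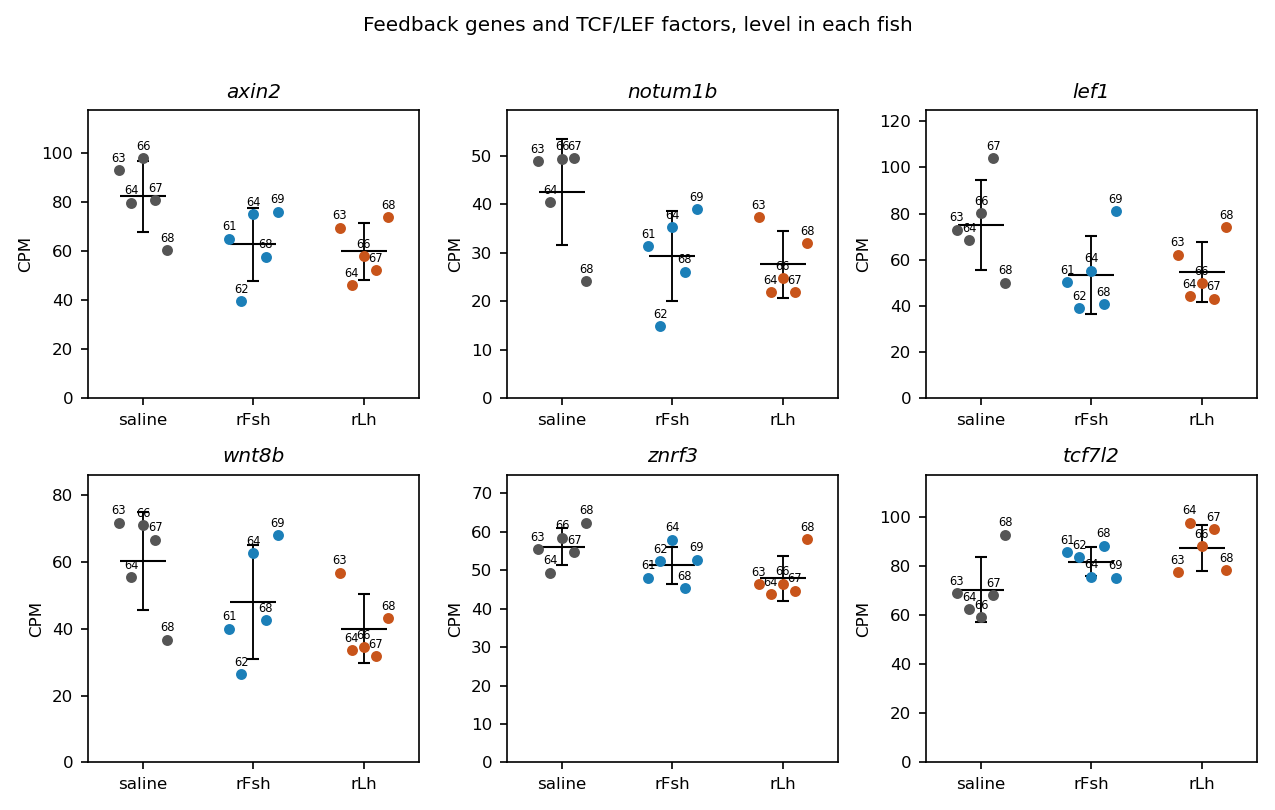
Level in CPM (vertical axis, from 0) of axin2, notum1b, lef1, wnt8b, znrf3 and tcf7l2 in each fish, by group, with the fish number above each point and the group mean as a horizontal line with its SD as error bars (n = 5). For axin2, notum1b and tcf7l2 the hormone-treated fish all lie to 1 side of the saline fish other than saline 68, and saline 68 lies among the treated fish (60.3, 24.1 and 92.9 CPM). The share of all tested genes that separate in this way was not counted.

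Among the constant parts of the destruction complex, apc2 (linkage group 14, 23146362 to 23167594) has a span that overlaps another protein-coding gene. Reads were counted without strand, and whether the overlap affected the count was not assessed. The level of apc2 was 19.9, 19.1, 15.4, 15.1 and 20.5 CPM in saline, 12.9, 20.7, 25.9, 17.6 and 27.7 CPM after rFsh and 21.8, 25.8, 27.0, 26.5 and 20.3 CPM after rLh. Only rLh 68 fell within the saline range, by 20.3 against 20.5 CPM. The rLh value was 0.44 ± 0.17 (edgeR adjusted p = 0.352). apc was at 0.15 ± 0.10 after rFsh and 0.01 ± 0.10 after rLh, and axin1 at 0.16 ± 0.14 and 0.25 ± 0.13. The spans of wnt3 and wnt5b also overlap other protein-coding genes.

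The remaining inhibitors did not share a direction. For rFsh against saline sfrp1a, a decoy that binds Wnt proteins, was at 0.30 ± 0.14 (edgeR adjusted p = 0.271), frzb, another decoy, at -0.49 ± 0.26 (adjusted p = 0.345) and dkk3b at -0.16 ± 0.17 (adjusted p = 0.658). The Dishevelled genes dvl1a and dvl2 were at 0.06 ± 0.14 and 0.00 ± 0.10 after rFsh and at 0.10 ± 0.14 and 0.19 ± 0.10 after rLh. The 4 genes of the R-spondin axis, rspo1, rspo2, lgr4 and znrf3, all had a fitted value below 0 for rLh against saline. The values ran from -0.26 to -0.03, with a median of -0.25, and none passed the edgeR test. Of all tested genes 10274 had a value below 0 in this comparison and 10953 above.

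**Figure D4:**
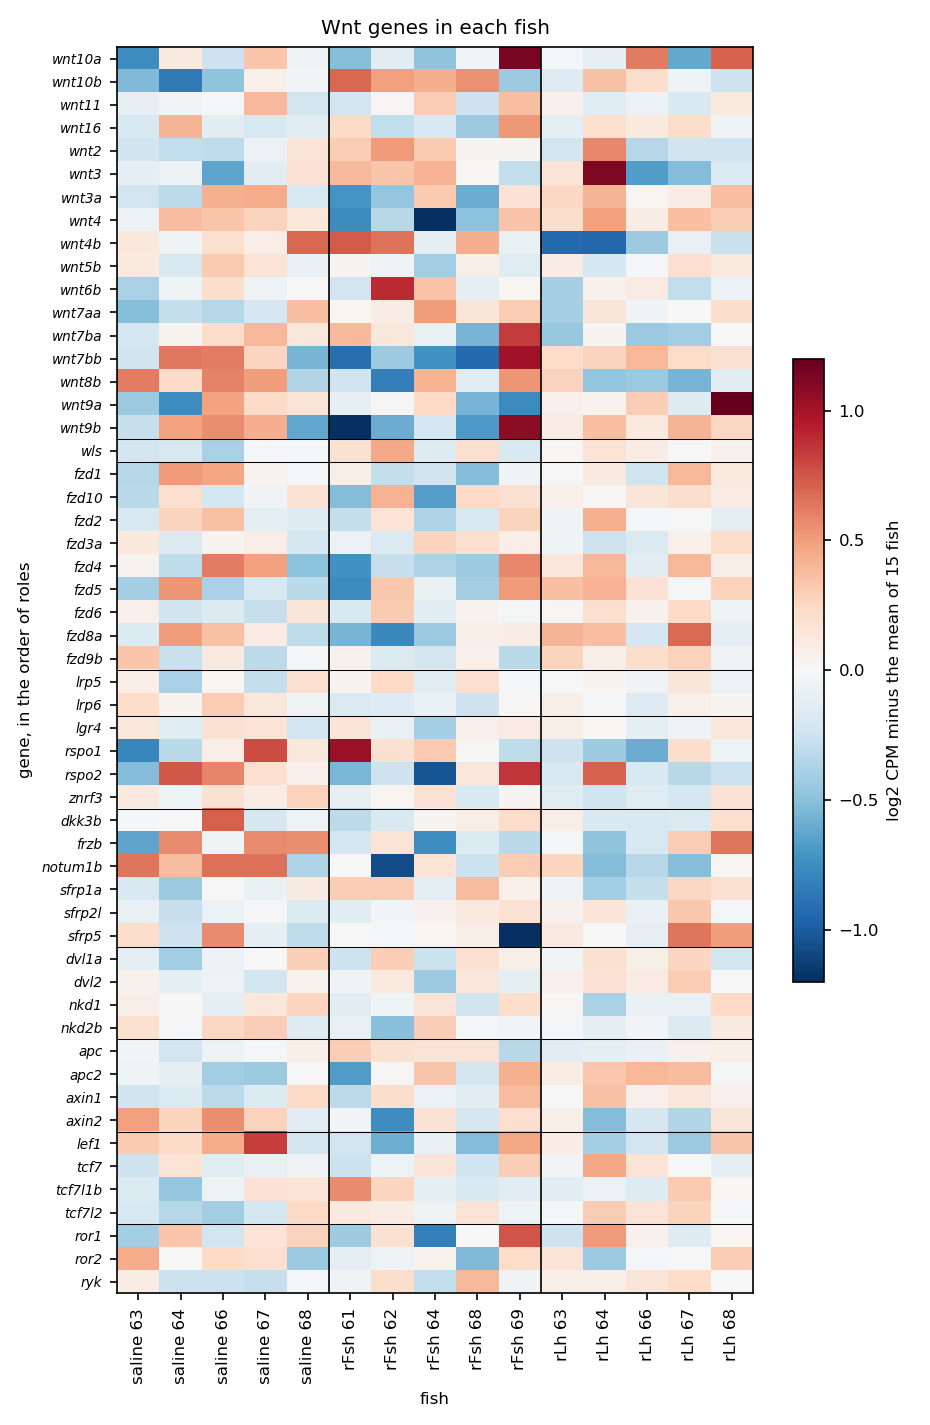
Log2 CPM of the 54 Wnt genes (rows, by role) in each of the 15 fish (columns, by group), shown as the difference from the gene's mean over the fish, with differences beyond the ends of the colour scale drawn at its ends. rFsh 69 differs from the other rFsh fish in many rows, and the rows of axin2, notum1b, lef1 and wnt8b share their pattern over the fish.

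The next question was whether the textbook targets among the members moved together from fish to fish. Pearson's r and Spearman's rho of log2 CPM with axin2 were taken over the 15 fish for the 4 other targets among the members, with 2-sided permutation tests adjusted over the 4. For notum1b r was 0.97 and rho 0.96 (each permutation p = 1.0e-05, the smallest 100000 resamples can give, adjusted p = 4.0e-05 and 2.0e-05). For lef1 r was 0.85 and rho 0.91 (permutation p = 1.2e-04 and 1.0e-05, adjusted p = 2.4e-04 and 2.0e-05). For znrf3 r was 0.51 and rho 0.61 (permutation p = 0.0499 and 0.0183, adjusted p = 0.0665 and 0.0245), and for nkd1 r was 0.45 and rho 0.40 (permutation p = 0.0904 and 0.137, adjusted p = 0.0904 and 0.137). Thus notum1b and lef1 followed axin2, nkd1 did not pass, and znrf3 passed by rank only. The textbook target genes listed outside the members did not share a direction. Over the 15 fish their r with axin2 ran from 0.78 (mycb), 0.67 (sp5a) and 0.67 (jag1b) down to -0.50 (cd44b), -0.56 (tbx3a) and -0.59 (myca), and these were not tested.

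Among these 4 targets notum1b and lef1 had the highest r with axin2 inside the groups too. On deviations from the group means r was 0.95 for notum1b, 0.78 for lef1, 0.28 for znrf3 and 0.36 for nkd1 (permutation tests, adjusted p = 4.0e-05, 0.0015, 0.308 and 0.244). These tests shuffled the deviations over all fish and not within groups. They do not allow for the fitted group means, so the p-values may be too small. Without rFsh 62 and rLh 64, the fish farthest from the median of axin2, r was 0.95, 0.82, 0.56 and 0.26 (adjusted p = 4.0e-05, 0.00124, 0.0625 and 0.378). Those 2 fish also held the highest red blood cell sums, 27.7 and 60.5 CPM, of which the gene alas2 alone gave 22.1 and 53.7 CPM. The part of red blood cells in these relations was not tested. Over the 12 fish r was 0.97, 0.83, 0.88 and 0.65 (adjusted p = 4.0e-05, 0.00136, 3.4e-04 and 0.0204).

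**Figure D5:**
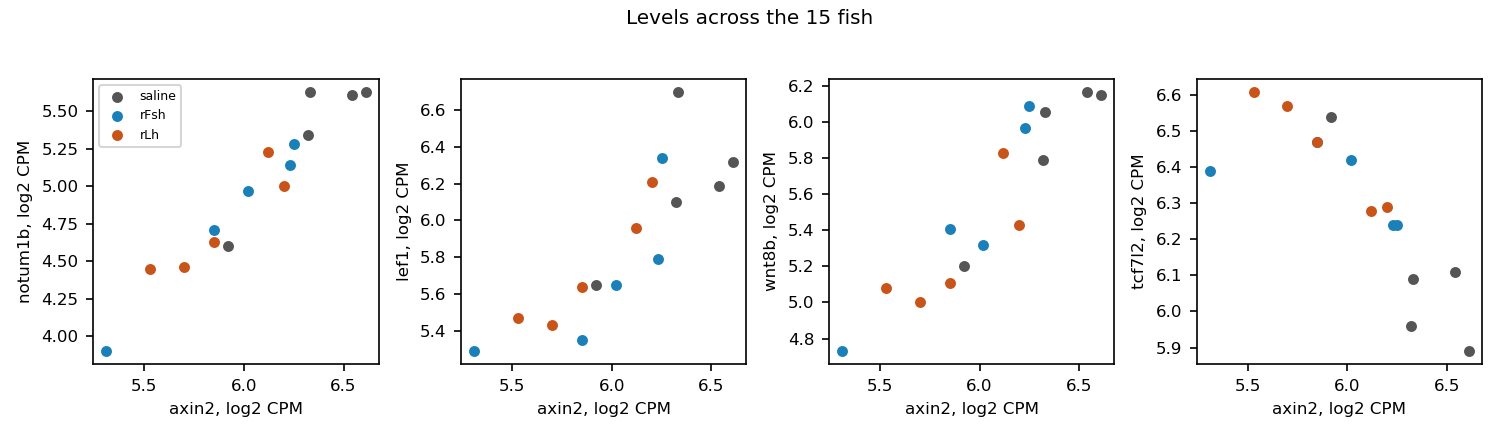
Log2 CPM of notum1b, lef1, wnt8b and tcf7l2 (vertical axes) against log2 CPM of axin2 (horizontal axes) in the 15 fish, with 1 point per fish coloured by group. The first 3 are higher where axin2 is higher (r = 0.97, 0.85 and 0.92) and tcf7l2 is lower (r = -0.83), with fish of all 3 groups along each trend, and 2 fish coincide in the tcf7l2 panel.

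Many other genes shared this pattern, and all points come from the same 15 libraries, which differ in depth and in marker sums, so the place of the members among all genes is given as a description. By r with axin2 notum1b was number 18 of 21226 genes from the top, wnt8b number 172 (r = 0.92), lef1 number 639 and nkd2b, a paralog of nkd1, number 666 (r = 0.84). From the bottom wls was number 38 (r = -0.87), tcf7l2 number 119 (r = -0.83) and fzd6 number 364 (r = -0.77). Of the other 53 members 2 (3.77%) had r of at least 0.9, beside 1.42% of all genes, 4 (7.55%) at least 0.8 beside 4.66%, and 2 (3.77%) at most -0.8 beside 0.98%. At an r of at least 0.7 the shares were 7.55% and 8.52%, and at least 0.6 they were 11.3% and 12.6%. At an r of at most -0.7 they were 5.66% and 3.68%, and at most -0.6 they were 15.1% and 8.95%.

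The pathway beyond the members was described with 81 further symbols, of which 76 were tested: 11 for β-catenin and its turnover, 20 nuclear co-factors, 19 of the planar polarity and calcium branch, 13 further extracellular regulators and 13 textbook target genes. In edgeR over the 15 fish none passed in any comparison, and 9, 10 and 11 had an unadjusted p under 0.05 in the same order of comparisons as above (11.8%, 13.2% and 14.5%, beside 17.2%, 13.2% and 9.91% of all tested genes). DESeq2 over the 15 fish called 1, 0 and 1 of them (backgrounds 2.94%, 0.222% and 0.637%), and over the 12 fish 1, 9 and 3 (backgrounds 5.89%, 12.5% and 3.2%), the 9 being out of 71 with an adjusted p. These counts are not read as a result about the lists. The call for rFsh was cd44b, a copy of a target gene that encodes a hyaluronan receptor, at 0.95 ± 0.30 over the 15 fish in DESeq2 (adjusted p = 0.0467). It was at 0.702, 0.928, 1.28, 1.23 and 1.45 CPM in saline and 2.35, 1.87, 2.27, 3.38 and 1 CPM after rFsh, where again rFsh 69 alone overlapped saline. The call between the hormones was nlk2, a kinase that acts on TCF/LEF factors, at 0.34 ± 0.09 (DESeq2 adjusted p = 0.0446). It was at 14.2, 15.7, 11.4, 14.3 and 14.1 CPM after rFsh and 17.0, 18.8, 17.4, 17.7 and 17.2 CPM after rLh, with no overlap. Between the hormones 1 of the 76 was higher with no overlap and 1 lower, beside 0.829% and 0.707% of all tested genes.

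Over the 12 fish the calls for rLh against saline in DESeq2 included daam2, a formin that binds Dishevelled, at -0.82 ± 0.17 (adjusted p = 2.44e-04), the polarity scaffold scrib at -0.32 ± 0.08 (adjusted p = 0.00259), and the co-repressor tle3a at -0.59 ± 0.17 (adjusted p = 0.00898). They also included mycb, a copy of the target gene myc, at -0.53 ± 0.16 (adjusted p = 0.0135), the co-repressor ctbp2l at 0.31 ± 0.09 (adjusted p = 0.0137), and the casein kinase gene csnk1da at -0.16 ± 0.05 (adjusted p = 0.0248). The other 3 were the ubiquitin ligase gene siah1 at -0.24 ± 0.08, the casein kinase gene csnk1db at 0.29 ± 0.10 and the phospholipase gene plcb3 at 0.29 ± 0.10 (adjusted p = 0.0342, 0.0388 and 0.0393). plcb3 was at 27.8, 27.2, 31.4, 29.8 and 30.1 CPM in saline and 33.7, 40.7, 33.2, 35.4 and 33.7 CPM after rLh, with no overlap. In the paper's account plcb3 was lowered by both hormones, in RNA-seq and in RT-qPCR on other fish. The gene with this symbol had the opposite sign here for rLh against saline. The paper matched its genes to human homologs for functional enrichment, and whether its plcb3 is the same sole gene was not checked. The reason for the difference was not tested. In this comparison 2 of the 76 genes were higher with no overlap and 2 lower, the latter being siah1 and fosl1a. The shares over all tested genes were 0.961% and 1.14%. Between the hormones scrib was at -0.34 ± 0.08, nlk2 at 0.39 ± 0.11 and plcb3 at 0.33 ± 0.10 in the same fit (adjusted p = 0.00463, 0.0195 and 0.0481). daam2 was at 636, 602, 703, 868 and 434 CPM in saline and 501, 327, 419, 347 and 495 CPM after rLh, so that again saline 68 alone lay within the rLh range. In edgeR over the 15 fish it was at -0.63 ± 0.22 (adjusted p = 0.344). Saline 68 alone also lay within the rLh range for tle3a (26.7 CPM, range 25.6 to 36.7) and mycb (75.7 CPM, range 60.7 to 86.3). For scrib rLh 68 alone, at 211 CPM, lay within the saline range of 194 to 220 CPM. The 12 fish leave out both. The other listed copy of myc, myca, was not called and went the other way, with means of 18 CPM in saline and 22.7 CPM after rLh. The paper also reports lef1, scrib and ctnnb1, the gene for β-catenin, as lowered by rLh. For scrib and ctnnb1 it gives RT-qPCR and immunostaining too. Over the 12 fish lef1 and scrib were lower here as well. ctnnb1 was not called, with means of 88.5 CPM in saline, 91 CPM after rFsh and 87.7 CPM after rLh.

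A further 5 genes carry only an identifier as symbol and are matched to a human Wnt gene in the study's supplementary tables. Those tables list genes chosen on these same fish, so the matches are no independent evidence of a change. LOC122777809 (linkage group 11, 19255587 to 19259689), matched to the TCF/LEF gene TCF7, was at 130, 139, 124, 149 and 94.8 CPM in saline, 103, 58.6, 115, 91.2 and 107 CPM after rFsh and 109, 65.3, 82.7, 69.9 and 117 CPM after rLh. All 10 hormone-treated fish lay below the saline fish other than saline 68. Its log2 fold change for rLh was -0.52 ± 0.19 over the 15 fish (edgeR adjusted p = 0.344) and -0.73 ± 0.15 over the 12 in DESeq2 (adjusted p = 3.34e-04), and its r with axin2 was 0.94. The match is the highest-scoring human protein in the paper's search, which does not show that this gene is a copy of tcf7. The member tcf7 itself had means of 23.6 CPM in saline and 26.7 CPM after rLh, and its r with axin2 was -0.27.

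LOC122776845 (linkage group 11, 16852486 to 16856197), also matched to TCF7, was at 267, 292, 248, 260 and 246 CPM in saline and 237, 158, 216, 188 and 243 CPM after rLh, with no overlap, and gave -0.33 ± 0.14 (edgeR adjusted p = 0.352). LOC122773679 (linkage group 8, 10432790 to 10446145), matched to DVL1, was at 32.2, 26.5, 25.7, 26.1 and 33.9 CPM in saline and 36.9, 40.2, 37.0, 40.2 and 34.6 CPM after rLh, with no overlap, and gave 0.39 ± 0.11 (edgeR adjusted p = 0.344). Over the 12 fish in DESeq2 these were -0.42 ± 0.14 (adjusted p = 0.024) and 0.48 ± 0.11 (adjusted p = 7.17e-04). After rFsh LOC122776845 was at 181 to 325 CPM. LOC122773679 was at 28.3, 42.4, 35.8, 36.1 and 33.8 CPM after rFsh, a mean of 35.3 CPM against 28.9 CPM in saline, with overlap. The paper reports dvl1 as lowered by rFsh, and whether it means this gene was not checked. Of all tested genes 1.14% were lower and 0.961% higher after rLh than in saline with no overlap. The identifier genes were chosen through calls on these same fish, so setting them beside these shares cannot show an excess.

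LOC122763299, matched to the decoy gene FRZB and on an unplaced sequence, was at 1.92, 4.49, 2.13, 3.54 and 2.45 CPM in saline and 0.663, 3.56, 1.41, 1.43 and 1.41 CPM after rFsh. The 4 rFsh fish other than rFsh 62 lay below every saline fish. It gave -0.81 ± 0.36 over the 15 fish (edgeR adjusted p = 0.264) and -1.3 ± 0.33 over the 12 in DESeq2, without rFsh 62 (adjusted p = 0.00641). LOC122767722 (linkage group 1, 9902860 to 9916353), matched to DVL3, was at 67.5, 67.1, 67, 63.9 and 56.8 CPM in saline and 58.2, 57, 58.1, 57.9 and 63.2 CPM after rFsh, where saline 68 was the lowest of all 10 fish. It gave -0.13 ± 0.06 (edgeR adjusted p = 0.28) over the 15 fish and -0.16 ± 0.05 over the 12 in DESeq2 (adjusted p = 0.0406).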

How the data were processed

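The authors made 1 modified SMARTseq2 library per fish from testis RNA and sequenced 100 bp read pairs. According to the methods and the submitters' processing notes, they trimmed with Cutadapt 3.4, checked quality with FastQC 0.11.9, aligned to the sole genome with Subread 2.0.1 and assigned reads to genes with RSubread at default parameters, without strand. The deposited values are raw read counts per gene of 15 fish, 5 per group, not normalised, with totals of 50.7 to 109.8 M and no molecular identifiers. The labels state 4 libraries per group, and 15 labelled libraries were used. Leaving out saline 68, rFsh 62 and rLh 68, 1 of the 125 ways to drop 1 fish per group, reproduced mean counts of 3037 genes in the supplementary tables (median relative difference 6.5e-07, next best 0.014). The paper states 4 males per group for RNA-seq and gives no reason for leaving out other fish. These 12 fish served as an alternative.

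Fits used edgeR 4.0.16 in R 4.3.3 (quasi-likelihood, the current rather than the older form of the test, TMM factors, 3 groups, no covariate), two-sided, with Benjamini-Hochberg adjustment over the 21227 genes with at least 50 counts in at least 1 fish and a threshold of 0.05. DESeq2 1.42.0 was run beside it. The script was tested on simulated data. Correlations used scipy 1.17.1. The members and all lists were chosen with earlier results of these data known. Members were given in full if they passed in edgeR or DESeq2 over the 15 or the 12 fish, were among the 5 smallest p of a comparison, or were axin2, lef1, wnt7aa, wnt10b or tcf7l2. Genes of the other pathway lists were named where they passed in one of those fits, at most 10 by p, and plcb3, the 11th, was added after its values were seen. ctnnb1 was also added after its values were seen, because the paper reports on it. sfrp5, fzd4 and the other genes named for rFsh 69 were chosen after their values were seen. Further alternatives were RLE, TMMwsp and upper quartile factors, filters on low counts, robust estimation, fits of 2 groups, the fish number as a block and leaving out each fish. The older quasi-likelihood form was added after seeing the data. Positions are from RefSeq (IFAPA_SoseM_1), which placed 52 of the 54 genes, wnt6b and frzb being unplaced. No promoter or protein sequence was used here, and the planned search of promoters for a TCF/LEF motif was not run. rnf43 was not analysed here.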

Additional observations from a re-analysis of the deposited data

Results flagged for a closer look

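Of 54 groups of 5 fish (18 genes in 3 groups), 5 held a fish whose gap to its nearest neighbour was over 0.71 of the group's range. Chance flags about 1 group in 20 where groups are independent and genes are not picked by their values. These genes share the same fish, and some were named through fits without saline 68 and rLh 68, so that rate does not apply here. Saline 68 was the highest of its group in 3 of the 5 flagged groups. Over the 54 Wnt genes it was the highest saline fish in 25.9% and the lowest in 27.8%, next to 25.7% each of all tested genes. It had 92.9 CPM of tcf7l2 against 59.2 to 68.9 CPM in the other saline fish (gap 0.711 of the range), 1.13 CPM of wnt4b against 0.667 to 0.789 CPM (0.734) and 3.58 CPM of wnt7aa against 1.93 to 2.40 CPM (0.714). In rLh 64 wnt2 was at 14.4 CPM against 7.60 to 8.23 CPM in the other rLh fish (0.908). In rLh 68 znrf3 was at 58.1 CPM against 43.7 to 46.5 CPM (0.811).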

How the results depend on the processing

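The count of Wnt genes that passed for rFsh against saline was 0 in edgeR over the 15 fish, 2 in DESeq2 over the 15, 4 in DESeq2 over the 12, and 0 to 3 when single fish were left out in edgeR (3 without rFsh 69, 2 without saline 68). For rLh against saline it was 7 in DESeq2 over the 12 fish and 0 in the other fits, and for rLh against rFsh 0 to 1 when single fish were left out (1 without rFsh 69). The median log2 fold change for rFsh was -0.08 to 0.04 when single fish were left out. Of 810 pairs of a named gene's value and an alternative, 19 crossed to the called side and 10 changed sign. None of these named genes was called in edgeR over the 15 fish, so no call could be lost, and the other 781 pairs say nothing of stability. The sign changes were in rLh against rFsh: axin2 at -0.19 to 0.02 and lef1 at -0.09 to 0.24 when single fish were left out, and lef1 at -0.20 in DESeq2 and -0.19 in edgeR over the 12 fish. Over the 12 fish Pearson's r of axin2 was 0.65 with nkd1 and 0.88 with znrf3, both past the threshold, while Spearman's rho was 0.56 with nkd1 (permutation test, adjusted p = 0.0637), which did not pass, and 0.90 with znrf3 (adjusted p = 1.6e-04). The cause of these shifts was not tested. Of 9 same-number pairs of fish 1 correlated over 0.1 (range -0.25 to 0.48). Pairs with different numbers were not compared, so whether the numbers pair the fish was not tested. With the number as a block the median for rFsh was -0.09 and wnt7ba for rLh against rFsh was 0.15, and no Wnt gene passed in any of the 3 comparisons. With 5 fish per group and counts as low as 13 to 54 for wnt10a, the SE beside each value limits what can be seen.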

Other observations

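rFsh 69 was the highest rFsh fish in 25 of the 54 Wnt genes (46.3%) and the lowest in 10 (18.5%), next to 26.9% and 25.1% of all tested genes. It held 2.18 CPM of the ligand gene wnt7bb against 0.545 to 0.776 CPM in the other 4 rFsh fish, and 2.18 CPM of wnt9b against 0.372 to 0.879 CPM. The receptor gene fzd4 was at 10.9 CPM against 4.38 to 5.98 CPM, and rspo2 at 1.88 CPM against 0.481 to 1.13 CPM. In the other direction sfrp5, which encodes a secreted Wnt decoy, was at 4.84 CPM against 12.2 to 13.1 CPM. These genes were picked for their values in this 1 fish.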
